A study of Mus musculus with 39 samples.

Results

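Ribosomal protein paralogs are second copies of ribosomal protein genes that arose by duplication and encode near relatives of the same protein. Rps27l, Rpl22l1, Rpl39l, Rpl7l1, Rpl10l and Rpl3l are 6 of the 55487 genes in the deposited count table. They were chosen by name, as paralogs of Rps27, Rpl22, Rpl39, Rpl7, Rpl10 and Rpl3, with earlier results of these data in view, so their p-values describe these embryos and are not independent support. All 6 passed the filter on low counts, which left 14119 genes.

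Wild-type mouse embryos gave 39 Smart-seq2 libraries, an assay that copies polyadenylated RNA at full length and amplifies it by PCR without molecular tags. The groups were separated 4-cell embryos (5 embryos, 20 libraries, each from 1 blastomere), intact 4-cell embryos (4 embryos, 1 library each), separated 2-cell embryos (5 embryos, 10 libraries) and intact 2-cell embryos (5 embryos, 1 library each). Embryos 6 and 7 of the separated 4-cell group form batch 2 and all other embryos batch 1, as the labels name them, so separated 4-cell embryos are compared with other groups through the 3 embryos of batch 1. Sister blastomeres were summed, and the embryo is the replicate; the labels do not tie embryos to females, so p-values rest on embryo-to-embryo spread, part of which may be technical. The labels give no strain, age in hours or time from separation to lysis, and an effect of separation cannot be told apart from one of the smaller input per library.

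A ribosome has a small and a large subunit, each built of RNA and of proteins that are normally encoded by 1 expressed gene each. A few of these proteins have a paralog that can take the parent's place, often in a single tissue. The embryo starts on ribosomes and transcripts stored in the egg, and the mouse genome is switched on broadly by the 2-cell stage. Rps27l is a paralog of the small-subunit protein RPS27 and a target of p53. The other members are large-subunit paralogs: Rpl22l1 stands in when Rpl22 is lost, Rpl39l marks male germ cells, Rpl10l is a retrogene that replaces X-linked Rpl10 in meiosis of the testis, and Rpl3l belongs to heart and skeletal muscle. Rpl7l1 resembles Rpl7 and is needed for mouse preimplantation development.

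In GENCODE M21 on GRCm38, Rps27l lies at chr9:66946086-66949516 on the plus strand, with 4 exons in its principal protein-coding transcript. Rpl22l1 lies at chr3:28805436-28807424 (plus strand, 4 exons), Rpl39l at chr16:10170226-10174911 (plus strand, 3 exons), and Rpl7l1 at chr17:46773907-46782672 (minus strand, 7 exons). Rpl10l is a single exon at chr12:66283379-66284401 on the minus strand, and Rpl3l has 10 exons at chr17:24727820-24736143 on the plus strand. The noncoding Gm33051 overlaps Rpl22l1 and Gm26904 overlaps Rpl7l1 on the other strand. Since the strand setting of the counting is not given in the sources used here, reads of these overlapping genes cannot be told apart.

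A paralog can be counted apart from its parent only where their sequences differ. The first 150 coding bases of Rps27l and Rps27, the pair with the largest counts, and of Rpl39l and Rpl39, the most similar pair, are shown with every differing base in capitals (GENCODE M21 transcripts, GRCm38, coding strand, 5′ to 3′):
Rps27l: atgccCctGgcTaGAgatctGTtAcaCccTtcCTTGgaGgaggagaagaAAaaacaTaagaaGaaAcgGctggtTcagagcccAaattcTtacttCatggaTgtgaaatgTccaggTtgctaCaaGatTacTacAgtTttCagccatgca
Rps27: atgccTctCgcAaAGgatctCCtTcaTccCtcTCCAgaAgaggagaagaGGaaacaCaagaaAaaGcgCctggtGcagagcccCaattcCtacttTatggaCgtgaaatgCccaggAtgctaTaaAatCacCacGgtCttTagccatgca
Rpl39l: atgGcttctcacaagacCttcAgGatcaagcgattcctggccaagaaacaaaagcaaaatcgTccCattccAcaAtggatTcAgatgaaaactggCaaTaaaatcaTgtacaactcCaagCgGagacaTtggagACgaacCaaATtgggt
Rpl39: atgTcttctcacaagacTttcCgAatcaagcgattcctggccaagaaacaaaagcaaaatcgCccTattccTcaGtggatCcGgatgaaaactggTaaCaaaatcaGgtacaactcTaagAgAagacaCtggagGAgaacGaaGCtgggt

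Within these stretches 35 bases differ between Rps27l and Rps27, and 22 between Rpl39l and Rpl39. Over the whole coding sequence the identity was 76.2% for Rps27l and Rps27 (252 aligned bases), 70.2% for Rpl22l1 and Rpl22, 85.0% for Rpl39l and Rpl39, 56.0% for Rpl7l1 and Rpl7, 84.7% for Rpl10l and Rpl10, and 74.1% for Rpl3l and Rpl3. The longest identical stretch was 11 bases between Rps27l and Rps27 and 38 bases between Rpl39l and Rpl39. The expected counts, which can divide a read among genes, were whole numbers for the members in most libraries. The members with the most fractional values, Rps27l and Rpl39l, had them in 10.3% of their libraries. No value of a member was moved by more than 0.48 of a count by rounding. Of the parents, Rpl10 had fractional values in 35.9% of its libraries. Annotated processed pseudogenes carrying a member's symbol held at most 0.0095% as many counts as the member itself (Rpl7l1). Those carrying the symbol of the parent Rpl3 made up 4.05% of the summed counts of Rpl3 and these pseudogenes. Pseudogenes under other names were not searched.

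The start sites of the pair with the largest counts also differ. Each line holds the 15 bases before the RefSeq start in lower case and the first 15 transcribed bases in capitals (GRCm38.p6, gene strand, 5′ to 3′). Rps27l is at chr9:66946071-66946100 on the plus strand and Rps27 at chr3:90213634-90213663 on the minus strand:
Rps27l: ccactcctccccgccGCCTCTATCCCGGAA
Rps27: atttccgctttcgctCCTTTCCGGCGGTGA
All 6 members and 4 of the parents (not Rpl7 and Rpl3) matched a RefSeq promoter of 250 bases before and 50 after the start. The letters CCGGAAG, searched on both strands and picked after the sequences had been seen, occur in the promoters of Rps27l, Rpl39l and Rpl39, and not in the other matched promoters. They occur in 8.86% of all 32851 promoters in the table and in 36.8% of the 68 promoters of listed ribosomal protein genes. A match is a string of letters, and no binding was measured.

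Libraries held between 2.02 and 44.0 M counts and embryos between 2.74 and 103 M counts, with the intact 4-cell embryos shallowest and batch 2 deepest. All 15 early-embryo markers had counts in each group, and their summed level was 1661 to 3328 CPM in intact 4-cell embryos and 30935 to 65700 CPM in intact 2-cell embryos. CPM is an embryo's TMM-scaled count for a gene as a share of its total, per M counts, so a lower share cannot be told apart from more RNA of other genes, nor fewer cells with a transcript from less of it per cell.

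Rps27l was by far the most abundant of the 6 in intact embryos. Per kilobase of its transcript it stood at 3332 ± 392 CPM in intact 4-cell embryos (SD, n = 4) and 5098 ± 1170 CPM in intact 2-cell embryos (SD, n = 5). Rpl39l followed, at 453 ± 189 CPM per kilobase in intact 4-cell embryos and 379.7 ± 158 CPM per kilobase in intact 2-cell embryos. The ranges of these 2 members did not overlap in either group. Next came Rpl22l1, with 235 ± 77.2 CPM per kilobase (SD) in intact 4-cell embryos, where its highest embryo (319.5 CPM per kilobase) exceeded the lowest for Rpl39l (239 CPM per kilobase). Rpl10l (69.0 ± 51.0) and Rpl7l1 (55.5 ± 22.5) had overlapping ranges in intact 4-cell embryos, and Rpl3l was lowest at 6.17 ± 4.95 CPM per kilobase. In intact 2-cell embryos Rpl22l1 (69.6 ± 49.1), Rpl10l (37.5, from 15.9 to 82.7), Rpl7l1 (31.0 ± 16.9) and Rpl3l (12.0 ± 7.03) kept that order of means, with overlapping neighbours. Without length correction Rps27l ranked 44 of 14119 genes by mean CPM in intact 4-cell embryos and 29 in intact 2-cell embryos.

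**Figure D1:**
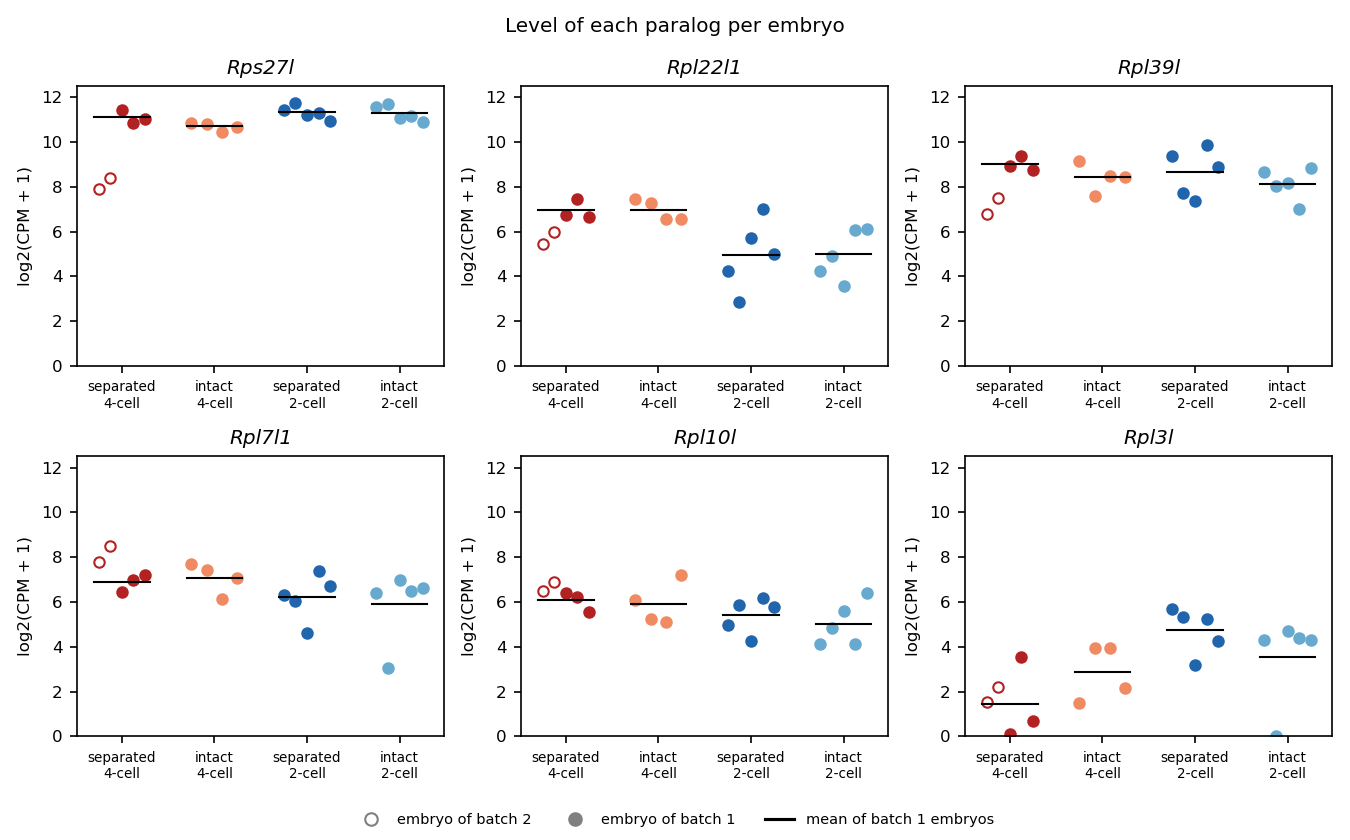
Level of each paralog in each embryo, as log2(CPM + 1) after TMM scaling, for separated 4-cell, intact 4-cell, separated 2-cell and intact 2-cell embryos from left to right; open points are the batch 2 embryos, filled points the batch 1 embryos and bars the means of batch 1 embryos. Rps27l is the highest of the 6 in each batch 1 embryo, at 1405 to 1828 CPM in intact 4-cell and 1925 to 3309 CPM in intact 2-cell embryos, and its 2 batch 2 embryos sit at 240.2 and 338 CPM.

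The first comparison asks how the paralogs differ between the stages. In intact embryos none of the 6 passed the edgeR quasi-likelihood test at an adjusted p of 0.05, while 4 of the 6 parents rose, and in separated embryos none of the paralogs passed and all 6 parents rose. Of these parents Rpl22 was at the threshold in separated embryos (adjusted p = 0.0495): it passed in 10 of 28 alternative settings, and in 4 of the 19 that leave out 1 embryo, with adjusted p from 0.0127 to 0.127. Rpl39 passed there in 22 and Rpl10 in 23 of the 28. The background is 10.4% of 14119 genes called in intact embryos (5.41% higher, 4.99% lower) and 11.1% in separated embryos (6.4% higher, 4.7% lower), so 0 of 6 paralogs is near what the table as a whole gives. At an unadjusted edgeR p under 0.05 the members numbered 2 in intact and 0 in separated embryos, where 3954 and 3946 of all 14119 genes were counted. DESeq2 called 1 member in intact embryos, Rps27l, and 0 in separated embryos, where it called 3047 and 3210 of all genes. The median log2 fold change of the 6 paralogs was 0.55 in intact and 0.28 in separated embryos, that of the 6 parents 1.88 and 2.01, and that of all genes 0.0 and -0.15.

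Rps27l had 1828, 1800.2, 1405 and 1617 CPM in intact 4-cell embryos, against 2999, 3309, 2182, 2304 and 1925 CPM in intact 2-cell embryos. Every intact 4-cell embryo was below every intact 2-cell embryo. The log2 fold change was -0.61 ± 0.21 (SE), a 0.654-fold level, with an edgeR adjusted p of 0.0619. That p falls below 0.05 under 17 of the 28 alternative settings, among them DESeq2 (log2 fold change -0.76, adjusted p = 0.00834) and the fit without batch 2 (-0.76, adjusted p = 0.0186), and over all 28 it ranged from 0.00834 to 0.883. With DESeq2 size factors the median of all genes moved to -0.13, and relative to it the log2 fold change of Rps27l was -0.64.

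In separated embryos Rps27l had 240.2 and 338 CPM in the 2 batch 2 and 2753, 1854 and 2107 CPM in the 3 batch 1 embryos of the 4-cell stage, against 2776, 3451, 2392, 2538 and 1983 CPM in 2-cell embryos. The batch 1 embryos overlapped with the 2-cell embryos, and the log2 fold change was -0.23 ± 0.22 (adjusted p = 0.557). The stage differences of intact and separated embryos were not shown to differ (interaction 0.38 ± 0.30 on the log2 scale, adjusted p = 0.855).

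The parent Rps27, a zinc-finger protein of the small subunit, was scarcer than its paralog at the 2-cell stage. It had 1705, 1150.3, 1225 and 1458 CPM in intact 4-cell embryos, against 357, 212, 377, 345 and 573 CPM in intact 2-cell embryos, and rose by 1.89 ± 0.32 on the log2 scale (adjusted p = 0.000989). It also rose in separated embryos, by 1.94 ± 0.34 (adjusted p = 0.00164).

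The balance within this pair differed between stages. The counts of Rps27l per count of Rps27 were 1.07, 1.56, 1.15 and 1.11 in intact 4-cell embryos, against 8.39, 15.6, 5.79, 6.67 and 3.36 in intact 2-cell embryos. The ratios did not overlap, and the difference of mean log2 ratios was -2.54, a 5.80-fold lower ratio (exact two-sided permutation test, p = 0.0159, the smallest this design allows). In separated embryos the ratio was 1.78, 1.17 and 1.38 in the 4-cell embryos of batch 1, against 5.79, 9.26, 13.7, 3.60 and 6.70 in 2-cell embryos (difference -2.31 on the log2 scale, exact two-sided permutation test, p = 0.0357, again the smallest possible). Per kilobase of transcript, Rps27l made up 45.5 ± 4.34% of the pair in intact 4-cell embryos (SD, n = 4) and 81.8 ± 7.92% in intact 2-cell embryos (SD, n = 5), and 49.6 ± 5.26% in separated 4-cell embryos of batch 1 (SD, n = 3) and 82.1 ± 7.23% in separated 2-cell embryos (SD, n = 5). Single blastomeres hold the same counts before summing, so they describe the spread and are no further support. Their ratio ranged from 1.05 to 2.46 over the 12 4-cell blastomeres of batch 1 and from 3.30 to 14.9 over the 10 2-cell blastomeres, without overlap. For every other pair these ranges overlapped, as for Rpl39l to Rpl39 (0.152 to 0.469 against 0.267 to 1.73). In all, 12 permutation tests of ratios per embryo were run, 1 for each pair in intact and in separated embryos. Their p-values are not adjusted for that number. Such a ratio also falls when the parent alone rises, and no share of other gene pairs without overlap is given beside it.

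**Figure D2:**
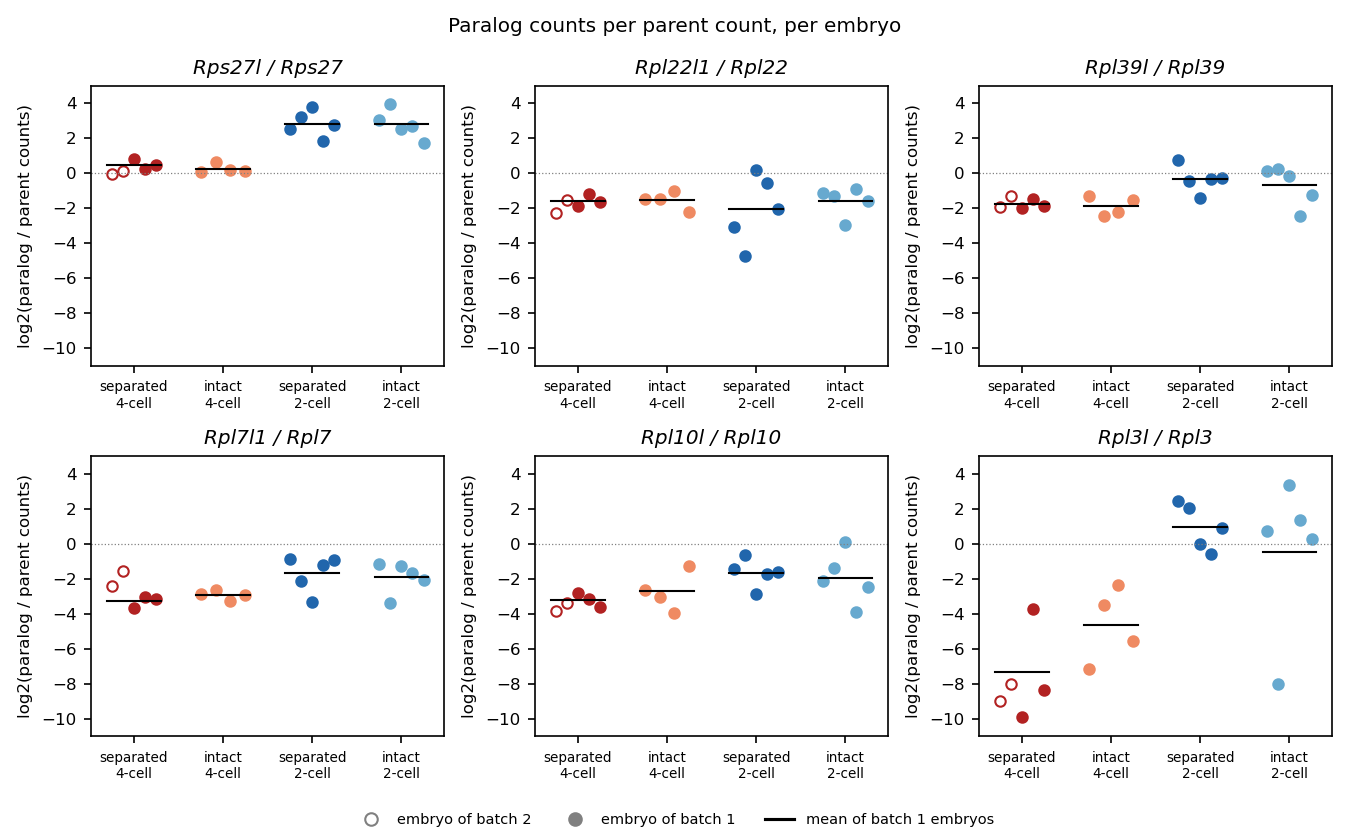
Counts of each paralog per count of its parent, on a log2 scale with 0.5 added to both counts, in each embryo; the dotted line marks equal counts, open points are batch 2 and bars are means of batch 1 embryos. For Rps27l the 4-cell embryos lie at 0.969 to 1.78 paralog counts per parent count and the 2-cell embryos at 3.36 to 15.6, and for Rpl22l1 the stages overlap.

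Rpl39l, the paralog of a small protein that lines the exit tunnel of the large subunit, had 563, 192, 357 and 347 CPM in intact 4-cell embryos, against 399.7, 263, 287, 126 and 452 CPM in intact 2-cell embryos. The groups overlapped (log2 fold change 0.26 ± 0.45, adjusted p = 0.772), and the same held in separated embryos (0.10 ± 0.49, adjusted p = 0.936). Rpl39 itself averaged 1258 ± 313 CPM in intact 4-cell embryos and 529 ± 347 CPM in intact 2-cell embryos (SD), a log2 fold change of 1.25 ± 0.41 that missed the threshold (adjusted p = 0.0550), and it rose by 1.64 ± 0.43 in separated embryos (adjusted p = 0.0220).

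The ratio of Rpl39l to Rpl39 was 0.413, 0.188, 0.216 and 0.351 in intact 4-cell embryos, against 1.09, 1.18, 0.921, 0.188 and 0.422 in intact 2-cell embryos. Intact 2-cell embryo 4 lay as low as the lowest 4-cell embryo. The difference was -1.17 on the log2 scale (exact two-sided permutation p = 0.0952). Without that embryo it was -1.60 (exact two-sided permutation p = 0.0286, the smallest possible with 4 against 4). With any other embryo left out the same test gave p from 0.107 to 0.214. In separated embryos the ratio was 0.258, 0.360 and 0.271 at the 4-cell stage (batch 1), against 1.70, 0.743, 0.377, 0.804 and 0.835 at the 2-cell stage. Those groups did not overlap (difference -1.44, exact two-sided permutation p = 0.0357, the smallest possible).

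Rpl22l1 had an estimate close to that of its parent. It had 176, 155, 92.9 and 94.0 CPM in intact 4-cell embryos, against 17.7, 29.1, 10.8, 65.7 and 68.8 CPM in intact 2-cell embryos. All 4-cell embryos were above all 2-cell embryos, and the log2 fold change was 1.75 ± 0.68, which did not pass (adjusted p = 0.0977, and 0.0533 to 0.554 over the alternatives). Its parent Rpl22, an RNA-binding protein of the large subunit that represses the paralog in other mouse cells, rose by 1.86 ± 0.44 (adjusted p = 0.00995). The members whose intact embryos did not overlap between stages were Rps27l and Rpl22l1, 2 of 6, where 17.0% of all genes had embryos without overlap. In separated embryos the count was 0 of 6, against 20.4% of all genes.

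In separated embryos Rpl22l1 had 42.0 and 61.5 CPM in batch 2 and 105, 176 and 99.98 CPM in batch 1 of the 4-cell stage, against 18.0, 6.20, 51.2, 127 and 31.2 CPM at the 2-cell stage. Embryo 4 of the 2-cell group reached into the 4-cell range, and the log2 fold change of 1.44 ± 0.71 did not pass (adjusted p = 0.194). Without that embryo it was 2.25 with an adjusted p of 0.0399. Its ratio to Rpl22 lay at 0.220 to 0.501 in intact 4-cell embryos and 0.129 to 0.532 in intact 2-cell embryos, with a difference of 0.06 on the log2 scale (exact two-sided permutation p = 0.905). In separated embryos the difference was 0.48 (exact two-sided permutation p = 0.714), with 2-cell embryos spread from 0.0378 to 1.13.

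Rpl7l1, whose relative in yeast acts in ribosome assembly, had 205, 171, 68.2 and 135 CPM in intact 4-cell embryos, against 83.5, 7.24, 125, 89.5 and 98.1 CPM in intact 2-cell embryos. The groups overlapped, with a log2 fold change of 0.84 ± 0.59 (adjusted p = 0.374), and of 0.45 ± 0.63 (adjusted p = 0.710) in separated embryos. Rpl7 rose by 2.07 ± 0.37 in intact embryos (adjusted p = 0.00159) and by 2.21 ± 0.39 in separated embryos (adjusted p = 0.00178). The ratio of Rpl7l1 to Rpl7 was 0.106 to 0.163 in intact 4-cell embryos and 0.0975 to 0.446 in intact 2-cell embryos, and its difference of -1.01 on the log2 scale had an exact two-sided permutation p of 0.0794. Intact 2-cell embryo 2 held the lowest ratio, and without it the difference was -1.37 (exact two-sided permutation p = 0.0286). With any other embryo left out the same test gave p = 0.143. In separated embryos the difference was -1.60 (exact two-sided permutation p = 0.107).

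Rpl10l had 67.6, 36.5, 33.0 and 145 CPM in intact 4-cell embryos, against 16.6, 27.5, 47.0, 16.2 and 84.6 CPM in intact 2-cell embryos. The groups overlapped (log2 fold change 0.88 ± 0.59, adjusted p = 0.351), and separated embryos gave 0.57 ± 0.63 (adjusted p = 0.625). Rpl10, a protein that joins the large subunit late in its assembly, had a log2 fold change of 1.14 ± 0.52 in intact embryos (adjusted p = 0.153) and rose by 2.09 ± 0.55 in separated embryos (adjusted p = 0.0210). The ratio of Rpl10l to Rpl10 differed by -0.77 on the log2 scale in intact embryos (exact two-sided permutation p = 0.397) and by -1.53 in separated embryos (exact two-sided permutation p = 0.0714).

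Rpl39l and Rpl10l are known from male germ cells, so sperm markers stand beside them. Of 10 sperm markers 3 had counts in intact 4-cell and 3 in intact 2-cell embryos, with sums of 1.22 to 32.0 CPM and 16.9 to 77.6 CPM. The sums in separated embryos were 1.79 to 24.7 CPM at the 4-cell stage and 8.87 to 53.5 CPM at the 2-cell stage. In intact embryos Odf2, which is also a centrosome protein, reached 29.0 CPM at the 4-cell stage and 47.4 CPM at the 2-cell stage, the protamine Prm1 was at 0, and Prm2 reached at most 2.98 CPM in intact 4-cell embryos and 30.3 CPM in intact 2-cell embryos. Rpl39l and Rpl10l had counts in all 39 libraries. The part of sperm RNA in these counts was not tested.

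Rpl3l was the rarest member. It had 1.81, 14.5, 14.2 and 3.42 CPM in intact 4-cell embryos, against 18.6, 0, 25.4, 20.1 and 18.6 CPM in intact 2-cell embryos, from at most 255 counts. The embryo at 0 allows a level of up to 0.417 CPM (3 counts, counting error only). The groups overlapped only because of that embryo, and the log2 fold change was -0.97 ± 1.28 (adjusted p = 0.682). In separated embryos it had 1.93 and 3.56 CPM in batch 2 and 0.0723, 10.8 and 0.617 CPM in batch 1 of the 4-cell stage, against 50.6, 38.7, 8.11, 36.5 and 18.3 CPM at the 2-cell stage. Embryo 3 of the 4-cell stage lay above the lowest 2-cell embryo, and the log2 fold change of -2.99 ± 1.57 did not pass (adjusted p = 0.220).

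Its parent Rpl3, a core protein near the peptidyl transferase centre, had the largest stage difference of the parents. It rose by 3.89 ± 0.65 on the log2 scale in intact embryos (adjusted p = 0.000903) and by 3.06 ± 0.66 in separated embryos (adjusted p = 0.00644). The counts of Rpl3l per count of Rpl3 were 0.00707, 0.0887, 0.198 and 0.0218 in intact 4-cell embryos, against 1.67, 0.00395, 10.4, 2.55 and 1.23 in intact 2-cell embryos (difference -4.18 on the log2 scale, exact two-sided permutation p = 0.127). Without intact 2-cell embryo 2, where Rpl3l had no count, the difference was -6.07 (exact two-sided permutation p = 0.0286, the smallest possible with 4 against 4). With any other embryo left out the same test gave p from 0.143 to 0.25. In separated embryos the ratio was 0.00107, 0.0746 and 0.00312 at the 4-cell stage (batch 1), against 5.42, 4.20, 1.01, 0.663 and 1.91 at the 2-cell stage, without overlap (difference -8.28, exact two-sided permutation p = 0.0357, the smallest possible). The 0.00107 rests on 1 count of Rpl3l, and the 0.00395 on 0 counts, so that the added 0.5 sets it. The parent was low at the 2-cell stage too, and the 10.4 rests on 24 counts of Rpl3. In separated 2-cell embryos 1, 3 and 5 the lower sister held 3, 4 and 2 counts of Rpl3. Over single 2-cell blastomeres the ratio ran from 0.0323 to 518.

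Of 10 striated muscle markers 3 had counts in intact 4-cell and 5 in intact 2-cell embryos, and their sums were 91.9 to 163 CPM and 0.517 to 38.3 CPM. The sums in separated embryos were 86.9 to 251 CPM at the 4-cell stage and 18.2 to 85.8 CPM at the 2-cell stage. Actn2 and Ttn carried the sums in intact embryos, and the part of muscle-gene RNA in the Rpl3l values was not tested. The muscle creatine kinase Ckm was at 0 in all intact embryos.

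**Figure D3:**
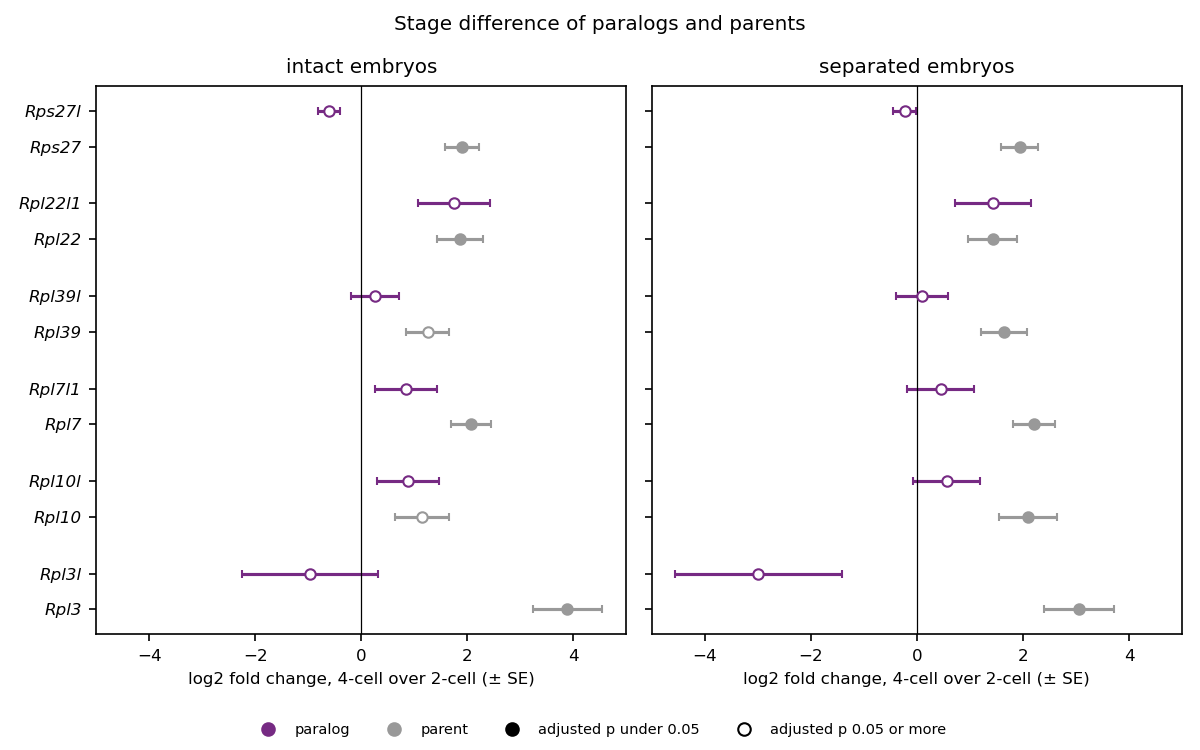
Log2 fold change of 4-cell over 2-cell embryos with its standard error for each paralog (purple) and its parent (grey), in intact embryos on the left and separated embryos on the right; filled points have an edgeR adjusted p under 0.05. No paralog is filled, and 4 parents in intact and 6 in separated embryos are, at log2 fold changes of 1.43 to 3.89; the 1.43 is Rpl22 in separated embryos, which passed in 10 of 28 alternative settings.

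The paralogs can be set beside the whole list of 79 cytosolic ribosomal protein genes, which includes the parents. In intact embryos 65 of the 79 rose and 0 fell, with a median log2 fold change of 1.49 against 0.0 for all genes. In separated embryos 67 rose and 0 fell, with a median of 1.51 against -0.15. The list ran from Rpl3 at the top to Rps3a1 at the bottom, whose log2 fold change was -0.12 ± 0.25 in intact embryos (adjusted p = 0.809) and 0.21 ± 0.27 in separated embryos (adjusted p = 0.688). Rps27l and Rpl3l lay below all 79 in both comparisons, Rpl39l had 1 listed gene below it in intact and 0 in separated embryos, and Rpl7l1 and Rpl10l had 5 each in intact and 1 each in separated embryos. Rpl22l1 lay among them, with 57 listed genes below it in intact and 36 in separated embryos. These places compare estimates without their standard errors. In separated embryos the median of all genes, -0.15, also lay below all 79. In intact embryos that median was 0.0, a little above Rps3a1, and the share of all genes below the list was not counted. Rpl36al, Rps4l and Rps27rt, 3 further paralogs of ribosomal proteins, did not pass either, with log2 fold changes from 0.73 (Rpl36al) to 1.87 (Rps27rt) in intact embryos and from 0.47 (Rpl36al) to 1.95 (Rps4l) in separated embryos.

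The second comparison asks whether taking embryos apart goes with a difference. No paralog passed in separated against intact embryos at either stage, and 0.0% of all genes were called at the 4-cell stage and 0.0142% at the 2-cell stage. At an unadjusted edgeR p under 0.05, 0 paralogs were counted at each stage, while 844 of all genes were at the 4-cell stage and 1481 at the 2-cell stage. DESeq2 called 379 genes at the 4-cell stage, where edgeR called 0, and 492 at the 2-cell stage. Of the 6 paralogs DESeq2 called 0 at each stage. The log2 fold changes of the paralogs ran from -1.14 (Rpl3l) to 0.52 (Rpl39l) at the 4-cell stage and from 0.05 (Rps27l) to 0.88 (Rpl3l) at the 2-cell stage. The smallest adjusted p-values were 0.801 and 0.777.

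Rps27l alone had groups without overlap there: 2753, 1854 and 2107 CPM in separated 4-cell embryos of batch 1, against 1828, 1800.2, 1405 and 1617 CPM in intact 4-cell embryos. The difference was 0.43 ± 0.23 on the log2 scale (adjusted p = 0.801), and 6.19% of all genes had no overlap in this comparison. At the 2-cell stage 0 of 6 paralogs had groups without overlap, against 0.552% of all genes. Separated 4-cell embryos of batch 1 held 13.0 to 15.8 M counts and intact ones 2.74 to 4.19 M counts, and the part of depth in the difference was not tested. For the interaction of stage and separation 0 of 6 paralogs passed by edgeR (0.0% of all genes, with 1228 at an unadjusted p under 0.05 and 517 called by DESeq2; 0 paralogs at an unadjusted p under 0.05 and 0 by DESeq2).

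The 2 batches of separated 4-cell embryos differed in Rps27l more than the stages did. It fell to 240.2 and 338 CPM in batch 2, against 2753, 1854 and 2107 CPM in batch 1, a log2 fold change of -2.95 ± 0.31 (adjusted p = 1.98e-05). This was the only paralog called, where 2.03% of all genes were called, 0.269% higher and 1.76% lower. Those are 38 genes higher and 248 lower, or 73 and 207 with DESeq2 size factors, under which the median log2 fold change of all genes was 0.38 in place of 0.13. Relative to that median Rps27l stood at -3.08, and at -3.09 with DESeq2 size factors. With each blastomere taken as a library the adjusted p of Rps27l was 0.231, the only setting of 25 in which it did not pass.

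Its parent Rps27 fell as well, by 2.48 ± 0.48 on the log2 scale (adjusted p = 0.00540). Their ratio was 0.969 and 1.09 in batch 2, against 1.78, 1.17 and 1.38 in batch 1, and all 5 lay below each of the 10 2-cell embryos. The levels of this pair thus differed by batch, and its ratios in batch 2 also lay below those in batch 1 without overlap. Batch 2 holds no 2-cell embryos, so its ratios are set here against 2-cell embryos of batch 1. Over the list of 79 ribosomal protein genes 0 were higher and 11 lower in batch 2, with a median of -0.56 against 0.13 for all genes.

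Rpl39l had 111 and 179.7 CPM in batch 2, against 482, 654 and 435 CPM in batch 1 (log2 fold change -1.85 ± 0.66, adjusted p = 0.210). Rpl7l1 had 219 and 358 CPM in batch 2, against 85.6, 126 and 148 CPM in batch 1 (1.27 ± 0.79, adjusted p = 0.548). In an edgeR fit of the 5 separated 4-cell embryos alone these 2 members passed too, with adjusted p of 0.00581 and 0.0462. That fit of 2 against 3 embryos called 1153 genes in all, where the main fit called 286. Of the 6 paralogs 5 had batches without overlap, 2 higher and 3 lower in batch 2, but so had 44.3% of all genes. Batch 2 was sequenced deeper, at 86.8 and 103 M counts per embryo, against 13.0 to 15.8 M counts in batch 1. Since batch 2 holds no other group, its difference from batch 1 cannot be told apart from one between embryo collections.

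Sister blastomeres show how evenly each paralog was held within an embryo, as a description without a test. Rps27l was even: its highest sister exceeded its lowest by 1.53 and 1.19 times in the 4-cell embryos of batch 2, by at most 1.41 times in those of batch 1, and by 1.05 to 1.42 times in the 2-cell embryos. The SD of its log2(CPM + 1) between sisters was 0.20 in batch 2 and 0.18 in batch 1 of the 4-cell stage and 0.22 at the 2-cell stage, where the medians over 6631 genes of mean CPM at least 10 were 0.52, 1.71 and 1.47. A smaller SD was found for 6.89% of those genes in batch 2 and 0.724% in batch 1 of the 4-cell stage, and for 2.41% at the 2-cell stage. Lower counts give larger SDs, and Rps27l is among the most abundant genes.

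Rpl22l1 was counted in all 20 blastomeres of 4-cell embryos, with CPM per library total from 39.3 to 117 in batch 2 and from 41.2 to 201 in batch 1. In 2-cell embryos it had counts in 8 of 10 blastomeres. Embryo 1 had 0 counts in blastomere 1, a library of 33.7 M counts, and 711 in blastomere 2. Embryo 2 had 270 counts in blastomere 1 and 1 in blastomere 2, a library of 38.4 M counts, and embryo 3 had 1054 and 0.

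Against 3 counts in the empty library, the fuller sister's CPM was at least 828-fold higher in embryo 1 and at least 422-fold higher in embryo 3. Embryos 4 and 5 were even, with CPM of 117 and 109 in embryo 4 and 38.1 and 24.8 in embryo 5. Such a split (1 sister at no more than 1 count, the other at 20 CPM or more) was common: it was seen in 6.05% to 12.2% of the 6631 genes in each 2-cell embryo. A split in 3 or more of the 5 embryos, as in Rpl22l1, was seen in 125 of these genes, 1.89%. Embryo 2 met that rule narrowly, with 1 count in 1 sister and 23.8 CPM in the other. A split in 2 or more embryos was seen in 632 genes, 9.53%. In embryos 1, 2 and 3 the sister with 0 or 1 count of Rpl22l1 was the more deeply sequenced, and a part of uneven amplification was not tested.

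**Figure D4:**
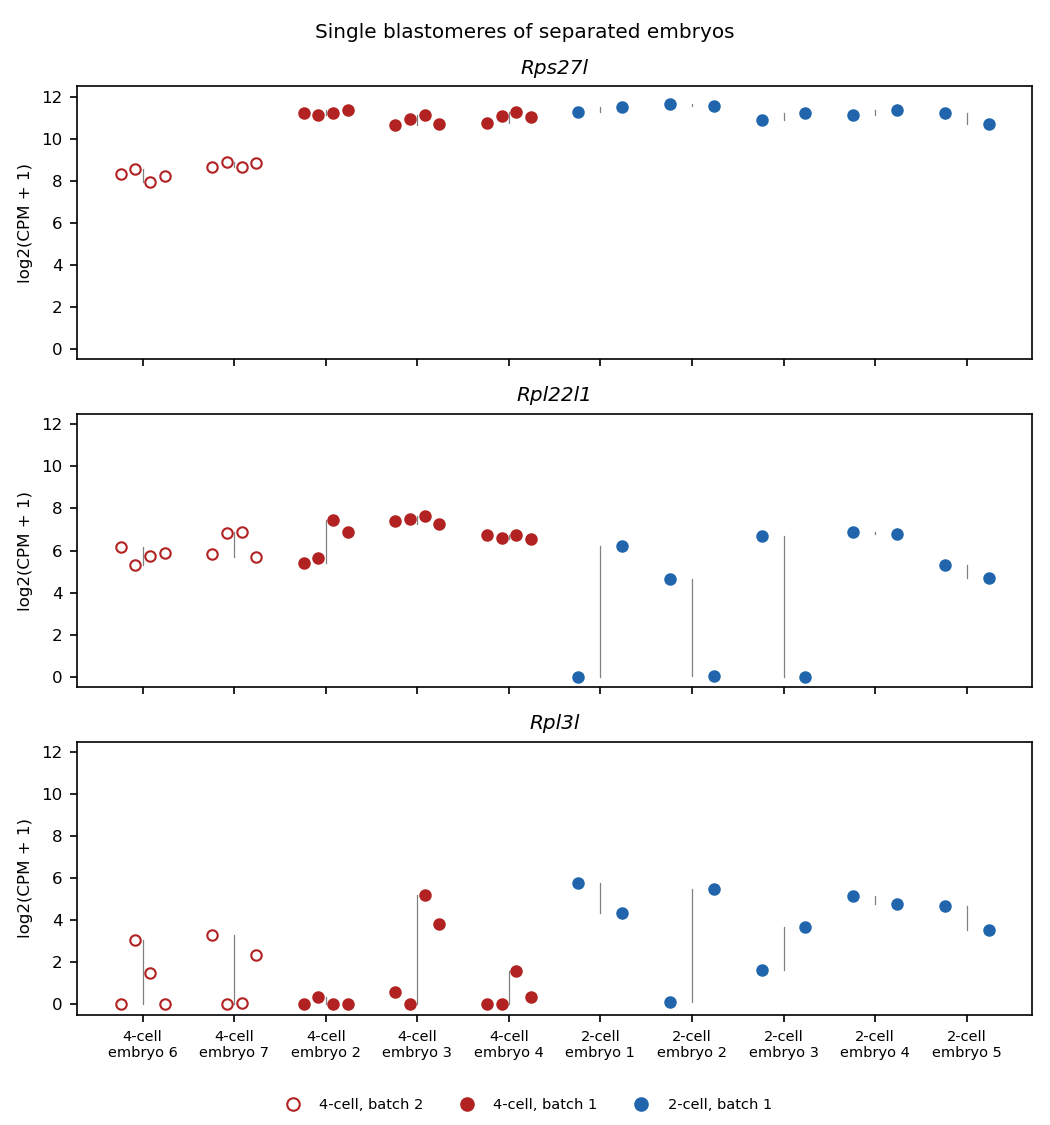
Rps27l, Rpl22l1 and Rpl3l in single blastomeres of separated embryos, as log2(CPM + 1) per library total; each point is 1 blastomere, a grey line joins the lowest and highest sister of an embryo, and open points are batch 2. Rps27l is even within embryos, and Rpl22l1 is at 0 or 1 count in 1 sister of 2-cell embryos 1, 2 and 3. Rpl3l has sister SDs of 1.57 in 4-cell batch 2, 1.52 in 4-cell batch 1 and 1.91 at the 2-cell stage. The medians over 6631 genes are 0.52, 1.71 and 1.47, and 97.6%, 42.3% and 66.9% of those genes have a smaller SD than Rpl3l.

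Rpl3l had counts in 5 of 8 batch 2 blastomeres and 6 of 12 batch 1 blastomeres at the 4-cell stage, and in all 10 blastomeres at the 2-cell stage. In separated 4-cell embryo 3, blastomere 3 held 128 and blastomere 4 held 39 counts, while blastomere 1 held 2 and blastomere 2 held 0. Of the 2-cell embryos, embryo 2 held 1 count in blastomere 1 and 1690 in blastomere 2, and embryo 4 was the most even, at 34.8 and 26.3 CPM. A library with 0 counts allows up to 0.573 to 1.25 CPM in batch 1 (3 counts, counting error only).

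Rpl10l was low in 1 sister in 2 embryos, with 10 counts (4.16 CPM) in blastomere 2 of 4-cell embryo 4 and 20 counts (1.62 CPM) in blastomere 2 of 2-cell embryo 3. The highest sisters of these embryos had 74.8 and 34.7 CPM. Its sister SD was 1.13 in 4-cell batch 1 and 1.33 at the 2-cell stage, below the medians of 1.71 and 1.47 over 6631 genes. A smaller SD was found for 30.8% and 45.0% of those genes. Rpl39l and Rpl7l1 had counts in every blastomere, with highest-to-lowest ratios of at most 2.68 and 5.38.

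By likeness of profile over the 19 embryos, the genes nearest to Rps27l were Ubl5, Snrpg and Cks2, at root mean square differences of 0.24, 0.25 and 0.30 on the log2 scale, where the median over 6008 genes was 2.01. Rps27 was at 1.36, place 1502. Those nearest to Rpl22l1 were Dph3 (0.65), Rpl39 (0.74) and Xpo1 (0.76), to Rpl39l Rpp30 (0.52), Snrpd1 (0.56) and Dppa3 (0.56), to Rpl7l1 Spout1 (0.69), Paics (0.70) and Mier3 (0.72), to Rpl10l Psmd7 (0.59), Cnbp (0.60) and Rpl19 (0.61), and to Rpl3l Klb (1.53), Usp32 (1.68) and Gtpbp3 (1.72). Snrpg and Snrpd1 encode core proteins of spliceosomal particles, and Dppa3 a maternal factor also called Stella. Among the 6008 genes the parents ranked from places 98 (Rpl7 for Rpl7l1) and 113 (Rpl22 for Rpl22l1) to place 5231 (Rpl3 for Rpl3l). These profiles share embryos, depth and batch, and are given as a description.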

How the data were processed

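The authors deposited expected counts per gene from RSEM 1.2.28, after trimming with Trim Galore 0.6.10 and alignment with STAR 2.7.3a to GRCm38, per the submitters' processing notes; the annotation and the strand setting are not given in the sources used here. Of the non-zero values 12.6% were not whole, and each was rounded before the sisters of an embryo were summed. The members and all gene lists were chosen with earlier results of these data known. Genes passing filterByExpr (14119) were fitted over all 19 embryos with edgeR 4.0.16 (TMM, 4 groups plus batch) and tested by quasi-likelihood, with Benjamini-Hochberg adjustment at 0.05; standard errors were derived from the log2 fold change and its F statistic. The method was tested on data simulated with less spread between embryos than these embryos had, so that run does not cover spread of this size. CPM of single blastomeres is per library total; other CPM is TMM-scaled. Ratios are log2 of paralog over parent counts, each plus 0.5, with exact permutation tests whose p-values are not adjusted for their number. Levels per kilobase use the length of the principal GENCODE M21 transcript with the longest coding sequence, not the effective length. Genes named beyond the members are the parents, the extremes of the ribosomal protein list and, per member of mean CPM at least 10, the 3 tested genes of mean CPM at least 10 with the nearest centred log2 CPM profile (prior count 2). No 2 libraries were identical. Alternatives were DESeq2 1.42.0, its size factors, other filters, the compared groups alone, a replicate block, no batch term, no batch 2, each embryo left out, each blastomere as a library (limma 3.58.1), another pseudocount, means over sisters and batch 2 added to the ratios. Amplified reads without molecular tags are not independent molecules, so limits cover counting error only.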

Additional observations from a re-analysis of the deposited data

Results flagged for a closer look

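Dixon's test at 95% was run on CPM and on log2 ratios to the parent of each paralog in each group, 48 sets of 4 or 5 embryos, of which chance flags about 1 in 20. The 5 separated 4-cell embryos were pooled over both batches, so a batch difference can hide an outlying embryo in that group. Intact 2-cell embryo 2 lay apart for Rpl3l, at 0.0 CPM, where the other 4 embryos had 18.6 to 25.4 CPM. Its log2 ratio to Rpl3 of -7.98 lay apart too, but restates the same count of 0: its size is set by the 0.5 added to both counts, and it is no second observation. The same embryo had the lowest Rpl7l1 of its group at 7.24 CPM.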

How the results depend on the processing

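Of 24 ratio comparisons under another pseudocount, means over sisters or added batch 2 embryos, 22 kept direction and call, and 2 passed: Rpl3l to Rpl3 in intact embryos with a pseudocount of 5 (-4.45, exact permutation p = 0.0476) and Rpl10l to Rpl10 in separated embryos with batch 2 added (-1.69, exact permutation p = 0.0159). With 1 embryo left out the difference ranged in intact embryos from -0.29 to 0.28 for Rpl22l1, -1.60 to -0.94 for Rpl39l, -1.37 to -0.82 for Rpl7l1 and -6.07 to -3.23 for Rpl3l, and in separated embryos from -2.56 to -2.08 for Rps27l, -0.19 to 1.03 for Rpl22l1, -1.71 to -1.17 for Rpl39l and -10.07 to -7.01 for Rpl3l, where too few embryos were left for a p under 0.05. In intact embryos 1 paralog, Rps27l, passed the stage test with DESeq2 size factors, every gene with a count, mean CPM at least 10, the compared groups alone, DESeq2, the replicate block without batch 2 and batch 2 left out, and 0 to 1 with an embryo left out. With each blastomere as a library 2 passed in separated embryos (Rpl22l1 and Rpl3l), and 0 to 1 with an embryo left out. Between batches 3 passed with the compared groups alone and 2 with each blastomere as a library.

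Genes called for stage in intact embryos numbered 3047 with DESeq2, 727 with the replicate block, 714 with each blastomere and 798 to 1650 with an embryo left out. In separated embryos they were 3210, 727, 3869 and 811 to 1653, and 2543 without a batch term. For separation at the 4-cell stage they were 11 with every gene, 1 at mean CPM 10, 379 with DESeq2, 3 with each blastomere and 0 to 1 with an embryo left out. At the 2-cell stage they were 104, 5, 492, 109 and 0 to 7, and 0 with the compared groups alone, the replicate block or batch 2 left out. For the interaction they were 38, 1, 517 and 0 to 2 with an embryo left out. Between batches they were 464 at mean CPM 10, 1153 with the compared groups alone, 1276 with DESeq2, 5139 with each blastomere and 64 to 337 with an embryo left out.

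Signs turned only for members that had not passed. For stage, Rpl39l was -0.12 in intact embryos with the replicate block, and in separated embryos -0.029 with every gene, -0.40 without a batch term and -0.35 with each blastomere. For separation at the 4-cell stage, the replicate block gave 0.25 for Rpl22l1, 0.35 for Rpl7l1 and 0.43 for Rpl10l, no batch term -0.19 for Rps27l, 0.37 for Rpl7l1 and 0.23 for Rpl10l, and batch 2 left out 0.12 for Rpl22l1 and 0.098 for Rpl10l. At the 2-cell stage, Rps27l was -0.18 with DESeq2 and with its size factors, -0.11 at mean CPM 10, -0.070 with the groups alone, -0.032 with the block and -0.042 without batch 2. There Rpl22l1 was -0.042 with the block and -3.07 with each blastomere, and Rpl7l1 was -0.088 with DESeq2 and with its size factors, -0.018 at mean CPM 10 and -0.0051 with the groups alone. With an embryo left out, ranges that cross 0 were -0.15 to 0.44 (Rpl39l, stage, intact), -0.12 to 0.47 (Rpl39l, stage, separated), -0.33 to 0.17 (Rpl22l1, separation, 4-cell), -0.26 to 0.60 (Rpl10l, separation, 4-cell), -0.15 to 0.16 (Rps27l, separation, 2-cell), -0.53 to 0.60 (Rpl22l1, separation, 2-cell), -0.25 to 0.35 (Rpl7l1, separation, 2-cell) and -1.07 to 3.24 (Rpl3l, batch). Same-numbered embryos did not deviate together (correlations -0.074 to 0.046), so the block joins embryos that share only a number. The cause of these changes was not tested, and Rpl3l is limited by its counts.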
